A study of Mus musculus with 8 samples.

Results

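The 9 genes described here carry the TGF-beta and BMP signal: the ligands Tgfb1, Tgfb3 and Bmp4, the receptors Tgfbr1 and Tgfbr2, the inhibitory Smad7, and the target genes Id1, Id2 and Id3. They were picked by name from the pathway, with earlier results of these data known. All 9 were among the 53700 genes of the count table. RNA was sequenced from Lewis lung carcinoma (LLC) cells, a mouse lung tumor line, either wild type (WT) or lacking FIH (FIH-KO), the oxygen-dependent asparaginyl hydroxylase that is encoded by Hif1an and restrains HIF transcription factors. FIH-KO cells were made with Cas9 protein and a guide against exon 2 of Hif1an and then grown from single-cell dilutions, so that the loss of FIH and the history of the derived cells cannot be told apart. Normoxia was 21% O2 and hypoxia 1% O2, each kept up over 16 hours, and crossing them with genotype gave WT normoxia, FIH-KO normoxia, WT hypoxia and FIH-KO hypoxia, each with 2 libraries. The labels do not state whether the libraries of a group came from separate cultures, and the p values therefore measure the spread between these libraries only.

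TGF-beta ligands are secreted in a latent form and, once released, bind TGFBR2, which recruits and phosphorylates TGFBR1. TGFBR1 then phosphorylates SMAD2 and SMAD3, whereas BMP ligands act through their own receptors on SMAD1, SMAD5 and SMAD9, and both branches share SMAD4. SMAD7 is induced by the pathway and blocks the receptors, and ID proteins, classic BMP targets, bind E proteins and keep them off DNA. In carcinomas the TGF-beta branch is known both for growth arrest and for the epithelial-mesenchymal transition.

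Library totals ran from 14519731 to 18177016 counts, and levels are given as CPM, the counts scaled to a common library size with TMM factors. Hif1an lay between 82.3 and 90.2 CPM in the WT libraries and between 34.8 and 51.0 CPM in the FIH-KO libraries. Of the epithelial markers Krt8 and Krt18 were expressed, Epcam had 0 counts and Cdh1 at most 1, and the 5 summed to between 3305 and 9031 counts per library. The 3 mesenchymal markers summed to between 47400 and 94743 counts, nearly all of them Vim. Krt8 lay between 104 and 151 CPM in the WT libraries and between 216 and 332 CPM in the FIH-KO libraries. Vim was separated likewise, at 3189 to 3980.5 CPM in WT and 4699 to 5442 CPM in FIH-KO. Krt18 overlapped, at 117 to 201 CPM in WT and 110 to 205 CPM in FIH-KO. Krt19 differed by oxygen, at 0.652 to 1.03 CPM in normoxia and 4.98 to 14.7 CPM in hypoxia. The part of these markers in the results was not tested. The 3 fibroblast markers summed to between 133 and 473 counts per library, and the 3 lung epithelium markers to at most 1. Of the leukocyte markers, 3 of 4 never passed 3 counts, and the 4 together held between 42 and 115 counts per library. Of the 9 signal genes, 8 passed the filter on low counts and were tested among 13933 genes. A gene was called when the adjusted p of edgeR's quasi-likelihood test over all tested genes was under 0.05, and fold changes of genotype are FIH-KO over WT.

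Promoter sequence from RefSeq was at hand for 6 of the signal genes, with 7 start sites, as the 250 bases before each start. It is shown because HIF factors, which FIH acts on, bind hypoxia response elements, whose cores read ACGTG or GCGTG on either strand. At least one core stood in 38.6% of 32851 mouse promoters of the same length (ACGTG in 16.6%, GCGTG in 28.2%), so a core is common and is a match of letters, not a bound site. In the stretches below, written 5′ to 3′ on the strand of the gene and placed on GRCm39, capitals mark GCGTG or its complement CACGC. For Tgfb1 and Tgfbr1 the stretch before the annotated gene start is given, and for Tgfbr2 and Id3 30 bases around the core.
Tgfb1 (chr7:25386177-25386389, plus strand): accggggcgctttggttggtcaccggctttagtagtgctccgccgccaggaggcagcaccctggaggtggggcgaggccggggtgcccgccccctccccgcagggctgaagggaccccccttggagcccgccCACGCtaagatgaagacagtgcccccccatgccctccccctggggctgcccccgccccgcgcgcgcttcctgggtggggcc
Tgfbr1 (chr4:47352972-47353133, plus strand): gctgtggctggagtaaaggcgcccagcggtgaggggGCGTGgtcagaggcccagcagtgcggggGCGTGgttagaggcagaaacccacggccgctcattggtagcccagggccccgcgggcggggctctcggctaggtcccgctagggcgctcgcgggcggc
Tgfbr2 (chr9:116004552-116004581, minus strand): ggggtgggggttGCGTGggagcgctgggag
Id3 (chr4:135871103-135871132, plus strand): ctataagagtcggccgctgcagGCGTGcgc
Counted back from the RefSeq start, the core lay at -118 to -114 in Tgfb1 on the opposite strand, at -138 to -134 in Tgfbr2 and at -8 to -4 in Id3. Tgfbr1 held it at -214 to -210 and at -186 to -182 before its upstream start, and its second start had none. The Bmp4 promoter held overlapping ACGTG cores of both strands between -188 and -183, and the Id2 promoter held neither core. Of the SMAD motifs searched on both strands, GGCGCC (9.59% of all promoters) stood before Tgfbr1 and Id2, CAGACA (17.1%) before the second start of Tgfbr1, and the palindrome GTCTAGAC (0.167%) before none of them.

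In normoxia, FIH-KO cells held more Tgfb1, Tgfb3, Id1 and Id2 RNA and less Tgfbr1 RNA than WT cells. Of the 8 tested genes 4 were called higher, against 15.2% of all genes, and 1 was called lower, against 13.0%. Their median log2 fold change was 0.57, beside -0.00 over all tested genes. In hypoxia, Tgfb3 and Id1 were called higher, so 2 of 8 against 14.1% of all genes, and Tgfbr1 lower, 1 of 8 against 13.9%. Since the genes were chosen with earlier results known, these shares describe them and are not a test. The normoxia calls numbered 2 of 8 without WT normoxia replicate 1, and 3 of 8 without WT normoxia replicate 2 or FIH-KO normoxia replicate 2. Over all genes the calls fell as well, from 3933 to 1735, 2080 and 3425 in the same settings.

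**Figure D1:**
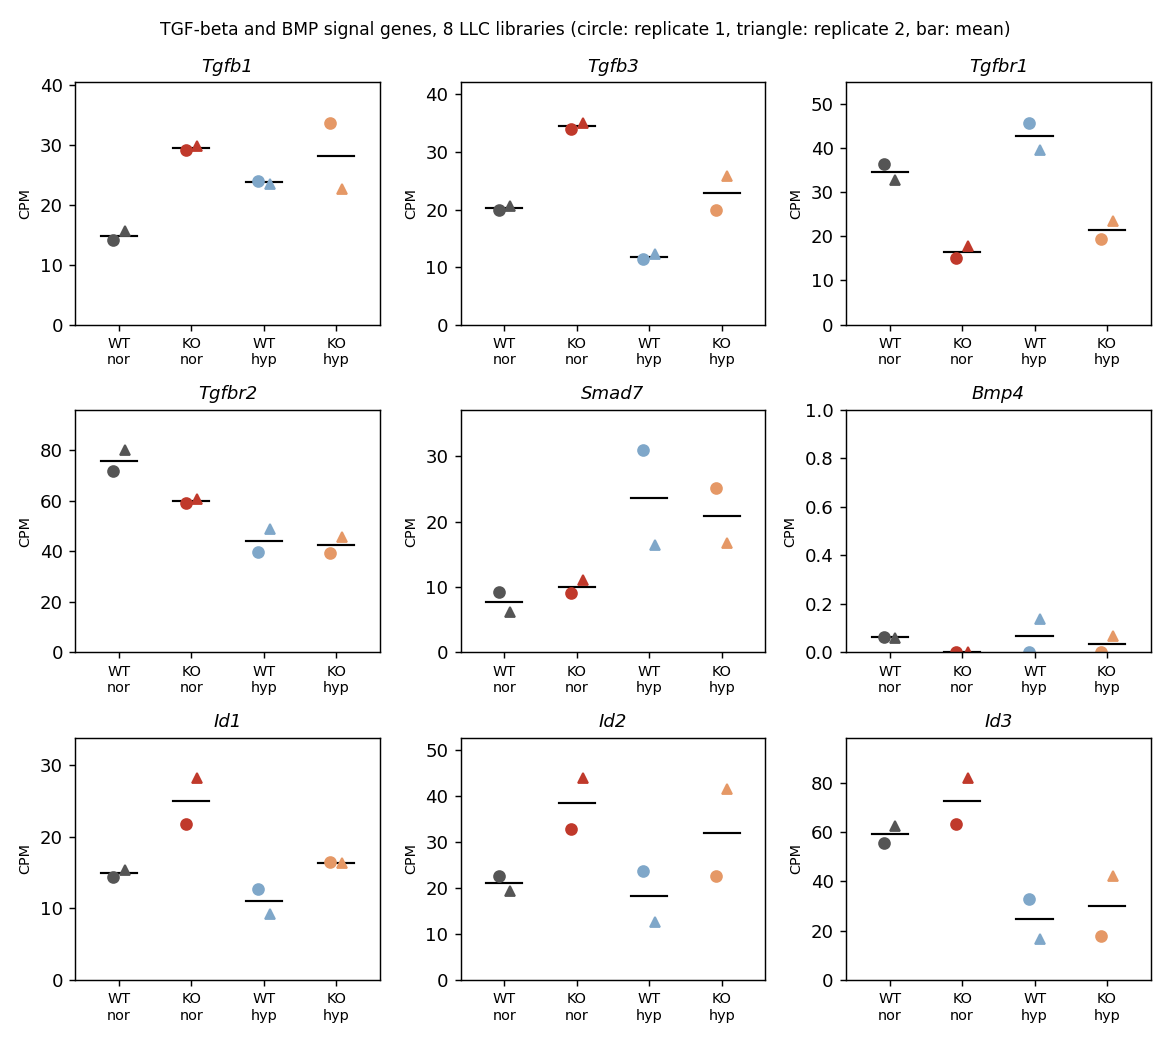
CPM (vertical axes, each from 0) of the 9 TGF-beta and BMP signal genes in the 4 groups (WT or FIH-KO, shown as KO, in normoxia, nor, or hypoxia, hyp), with a circle for replicate 1, a triangle for replicate 2 and a bar at their mean. Tgfbr1 sits between 15.1 and 23.4 CPM in the FIH-KO libraries and between 32.8 and 45.7 CPM in the WT libraries, while the Id3 libraries of hypoxia are widely spread.

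Tgfb1 (ENSMUSG00000002603.16, chromosome 7, 25386390 to 25404506, plus strand) encodes the most widely expressed ligand of the family. Its level in normoxia was 14.1 and 15.6 CPM in WT cells and 29.2 and 29.9 CPM in FIH-KO cells. In hypoxia it was 24.0 and 23.5 CPM in WT cells and 33.7 and 22.7 CPM in FIH-KO cells. The genotypes did not overlap in normoxia, and in hypoxia the second FIH-KO library lay below both WT libraries. FIH-KO cells thus held 1.99-fold more Tgfb1 in normoxia, a log2 fold change of 0.99 (standard error, SE, 0.18, with an edgeR adjusted p = 0.0020). In hypoxia the value was 0.25 (SE 0.18, edgeR adjusted p = 0.33), and it turned on the FIH-KO libraries, at 0.51 (adjusted p = 0.035) without replicate 2 and -0.03 without replicate 1. Hypoxia raised Tgfb1 in WT cells by 0.68 on the log2 scale (SE 0.18, edgeR adjusted p = 0.014), a call that was lost without any 1 of the 4 WT libraries (adjusted p up to 0.13). In FIH-KO cells the difference was -0.07 (SE 0.18, edgeR adjusted p = 0.85). The 20 tested genes nearest to Tgfb1 had a median log2 fold change of 0.24 between the genotypes in normoxia, beside 0.14 for chromosome 7. Of these 20, 7 were called higher, against 15.2% of all genes, and 0 lower, against 13.0%.

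Tgfb3 (ENSMUSG00000021253.8, chromosome 12, 86102756 to 86126301, minus strand) was the one TGF-beta ligand called higher in FIH-KO cells in both oxygen conditions. It held 19.99 and 20.6 CPM in WT normoxia, 34.1 and 35.1 CPM in FIH-KO normoxia, 11.4 and 12.2 CPM in WT hypoxia, and 19.99 and 25.8 CPM in FIH-KO hypoxia. Within each oxygen condition both FIH-KO libraries lay above both WT libraries, and within each genotype both hypoxia libraries lay below both normoxia libraries. The genotype difference was 0.77 in normoxia (SE 0.15, edgeR adjusted p = 0.0033) and 0.95 in hypoxia (SE 0.16, edgeR adjusted p = 0.0012). In normoxia the call was lost without replicate 1 of WT normoxia (0.72, adjusted p = 0.0504). Tgfb3 fell in hypoxia by 0.78 in WT cells (SE 0.16, edgeR adjusted p = 0.0035) and by 0.59 in FIH-KO cells (SE 0.15, edgeR adjusted p = 0.020), the same direction in both genotypes and opposite to that of Tgfb1 in WT cells. Tgfb3 shares 179 exon bases with Ttll5 on the other strand, and Ttll5 was called in none of the 4 comparisons (log2 fold changes from -0.09 to 0.23). The 20 tested genes nearest to Tgfb3 had a median genotype difference of 0.24 in normoxia and 0.24 in hypoxia. Of them 4 and 1 were called higher, against 15.2% and 14.1% of all genes, and 0 lower in both.

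Tgfb2, the third ligand and not one of the 9 genes, was scarce, at 2.25 and 2.43 CPM in WT normoxia and 0.655 and 0.504 CPM in FIH-KO normoxia. It moved the other way from Tgfb1 and Tgfb3, with log2 fold changes of genotype of -2.004 in normoxia (SE 0.41, edgeR adjusted p = 0.0034) and -1.55 in hypoxia (SE 0.44, edgeR adjusted p = 0.020).

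Levels of different genes were compared per length, as TPM, the counts scaled to the union of exons and to a common total. The summed TPM of Tgfb1, Tgfb2 and Tgfb3 was 33.1 and 35.6 in WT normoxia, 59.2 and 62.3 in FIH-KO normoxia, 34.3 and 36.5 in WT hypoxia, and 49.2 and 46.3 in FIH-KO hypoxia. Both FIH-KO libraries thus exceeded both WT libraries in total ligand RNA in either oxygen condition, and the WT totals of normoxia and hypoxia overlapped. The makeup shifted with oxygen in WT cells, where Tgfb1 held 39.8% and 41.4% of the sum in normoxia and 66.2% and 63.9% in hypoxia. In FIH-KO cells the Tgfb1 share was 46.4% and 46.3% in normoxia and 63.0% and 46.8% in hypoxia, and the second hypoxia library stayed near the normoxia share.

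**Figure D2:**
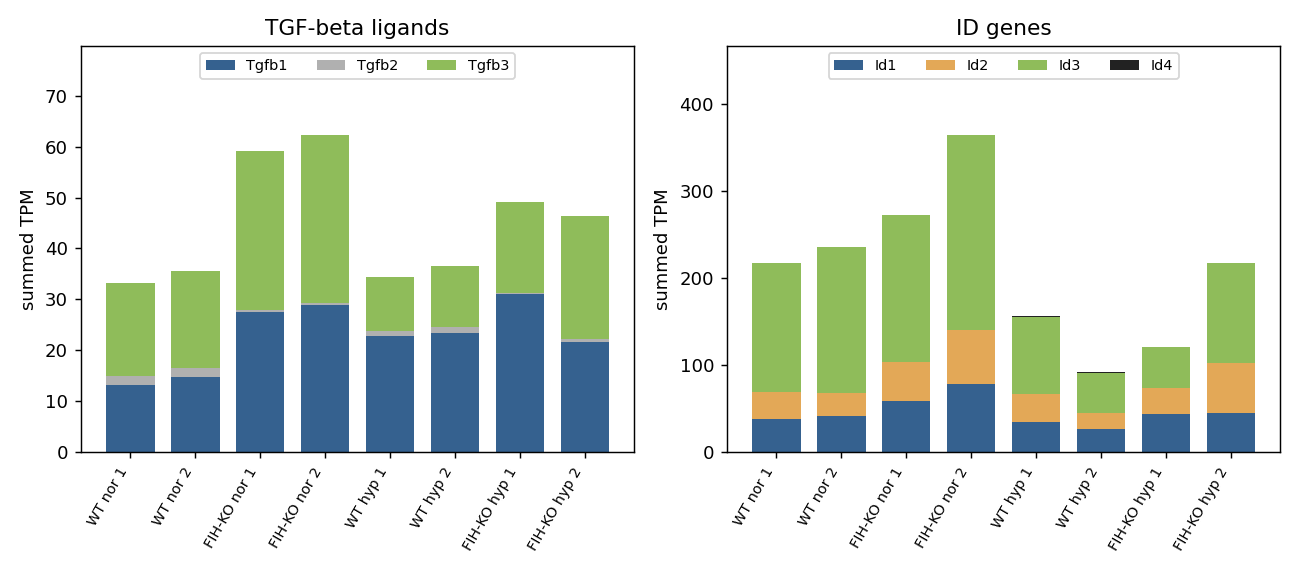
Levels per length (TPM) of the TGF-beta ligands (left) and of the ID genes (right), stacked for each of the 8 libraries. The 3 ligands sum to between 46.3 and 62.3 TPM in the FIH-KO libraries and between 33.1 and 36.5 TPM in the WT libraries.

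Bmp4 (ENSMUSG00000021835.16, chromosome 14, 46620250 to 46636745, minus strand), a BMP ligand, was at the limit of detection, with 0, 1 or 2 counts in every library, and was not tested. No comparison of Bmp4 was detectable at this depth. The BMP ligand that was tested, Bmp2, held 0.578 and 1.01 CPM in WT normoxia and 15.0 and 11.03 CPM in FIH-KO normoxia, a log2 fold change of 4.01 (SE 0.35, edgeR adjusted p = 1.4e-05). In hypoxia its genotype difference was 4.17 (SE 0.39, edgeR adjusted p = 2.4e-05).

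The type I receptor Tgfbr1 (ENSMUSG00000007613.16, chromosome 4, 47353134 to 47414931, plus strand) fell to about a 0.48-fold level in FIH-KO cells in normoxia and a 0.50-fold level in hypoxia. Its level was 36.4 and 32.8 CPM in WT normoxia against 15.1 and 17.9 CPM in FIH-KO normoxia. In hypoxia it was 45.7 and 39.7 CPM in WT cells against 19.4 and 23.4 CPM in FIH-KO cells. Every FIH-KO library lay below every WT library, whatever the oxygen. The log2 fold change was -1.07 in normoxia (SE 0.16, edgeR adjusted p = 0.00049) and -0.996 in hypoxia (SE 0.16, edgeR adjusted p = 0.00076), and both calls held in all the alternatives tried. Hypoxia changed Tgfbr1 by 0.30 in WT cells (SE 0.15, edgeR adjusted p = 0.15) and 0.38 in FIH-KO cells (SE 0.16, edgeR adjusted p = 0.13), and neither passed the threshold. The 20 tested genes around Tgfbr1 had a median genotype difference of -0.10 in normoxia and -0.20 in hypoxia. Of these, 4 and 2 were called lower, against 13.0% and 13.9% of all genes, and 1 and 2 higher, against 15.2% and 14.1%.

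The type II receptor Tgfbr2 (ENSMUSG00000032440.14, chromosome 9, 115913361 to 116004800, minus strand) was lower in hypoxia in both genotypes. It held 71.6 and 79.9 CPM in WT normoxia, 59.0 and 60.8 CPM in FIH-KO normoxia, 39.8 and 48.6 CPM in WT hypoxia, and 39.3 and 45.4 CPM in FIH-KO hypoxia. All 4 hypoxia libraries lay below all 4 normoxia libraries. Tgfbr2 fell by 0.78 on the log2 scale in WT cells (SE 0.13, edgeR adjusted p = 0.0012) and by 0.50 in FIH-KO cells (SE 0.13, edgeR adjusted p = 0.025). The genotype difference was -0.34 in normoxia (SE 0.13, edgeR adjusted p = 0.075) and -0.06 in hypoxia (SE 0.14, edgeR adjusted p = 0.78). The normoxia value passed the threshold with only the libraries compared in the fit (adjusted p = 0.034) and without replicate 1 of FIH-KO hypoxia (adjusted p = 0.038).

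Smad7 (ENSMUSG00000025880.12, chromosome 18, 75500374 to 75529006, plus strand), the inhibitor of the receptors, rose with hypoxia in both genotypes. Its level was 9.25 and 6.22 CPM in WT normoxia, 9.05 and 11.03 CPM in FIH-KO normoxia, 30.9 and 16.4 CPM in WT hypoxia, and 25.1 and 16.7 CPM in FIH-KO hypoxia. Every hypoxia library lay above every normoxia library, and the libraries of the genotypes overlapped in either condition. The log2 fold change of hypoxia was 1.62 in WT cells (SE 0.31, edgeR adjusted p = 0.0021) and 1.06 in FIH-KO cells (SE 0.30, edgeR adjusted p = 0.031). The FIH-KO call was lost without FIH-KO normoxia replicate 1 (adjusted p = 0.16), FIH-KO normoxia replicate 2 (0.073) or FIH-KO hypoxia replicate 1 (0.17). Between the genotypes Smad7 differed by 0.38 in normoxia (SE 0.32, edgeR adjusted p = 0.40) and by -0.18 in hypoxia (SE 0.29, edgeR adjusted p = 0.68).

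Of the ID genes, Id1 (ENSMUSG00000042745.10, chromosome 2, 152566218 to 152579544, plus strand) was called higher in FIH-KO cells in both conditions. It held 14.3 and 15.4 CPM in WT normoxia, 21.8 and 28.2 CPM in FIH-KO normoxia, 12.7 and 9.22 CPM in WT hypoxia, and 16.5 and 16.3 CPM in FIH-KO hypoxia. The genotypes did not overlap in either condition, and FIH-KO hypoxia came close to WT normoxia. The other 1112 tested genes of chromosome 2 had a median genotype difference of 0.23 in normoxia and 0.21 in hypoxia, beside -0.00 and -0.03 over all tested genes. For Id1 the log2 fold change of genotype was 0.75 in normoxia (SE 0.19, edgeR adjusted p = 0.011) and 0.57 in hypoxia (SE 0.20, edgeR adjusted p = 0.046). The normoxia call was lost without WT normoxia replicate 1 (adjusted p = 0.11), WT normoxia replicate 2 (0.065) or FIH-KO normoxia replicate 2 (0.11), and the hypoxia call was lost in 6 of 15 alternatives. Hypoxia lowered Id1 in FIH-KO cells by 0.61 (SE 0.19, edgeR adjusted p = 0.044), a call lost in 8 of 15 alternatives, and in WT cells the value was -0.43 (SE 0.20, edgeR adjusted p = 0.11).

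Id2 (ENSMUSG00000020644.10, chromosome 12, 25143798 to 25147282, minus strand) passed the threshold between the genotypes in normoxia, higher in FIH-KO, and in hypoxia its difference of like size missed the threshold. Its level was 22.6 and 19.4 CPM in WT normoxia, 32.9 and 44.0 CPM in FIH-KO normoxia, 23.7 and 12.6 CPM in WT hypoxia, and 22.6 and 41.5 CPM in FIH-KO hypoxia. In hypoxia the first FIH-KO library fell between the WT libraries. The log2 fold change was 0.87 in normoxia (SE 0.30, edgeR adjusted p = 0.045) and 0.81 in hypoxia (SE 0.30, edgeR adjusted p = 0.063). The normoxia call was lost with DESeq2 (adjusted p = 0.16), with a minimum of 10 counts per library (0.051) and without any 1 of the 4 normoxia libraries (adjusted p up to 0.24), and the hypoxia value passed without WT hypoxia replicate 1 (1.38, adjusted p = 0.023) or FIH-KO hypoxia replicate 1 (1.22, adjusted p = 0.0063), and with no filter on low counts (0.85, adjusted p = 2.2e-05). Oxygen did not change Id2 past the threshold in WT cells (-0.20, adjusted p = 0.66, edgeR) or FIH-KO cells (-0.26, adjusted p = 0.59, edgeR).

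Id3 (ENSMUSG00000007872.4, chromosome 4, 135870808 to 135873066, plus strand), per length the most abundant of the 9 genes in WT normoxia at 158 ± 13.5 TPM (SD, n = 2), fell with hypoxia. It held 55.7 and 62.3 CPM in WT normoxia, 63.2 and 82.0 CPM in FIH-KO normoxia, 33.0 and 16.7 CPM in WT hypoxia, and 17.9 and 42.2 CPM in FIH-KO hypoxia. All 4 hypoxia libraries lay below all 4 normoxia libraries, and within each hypoxia group the libraries were far apart. The log2 fold change of hypoxia was -1.24 in WT cells (SE 0.34, edgeR adjusted p = 0.016) and -1.27 in FIH-KO cells (SE 0.34, edgeR adjusted p = 0.024). With DESeq2 both missed the threshold (adjusted p = 0.066 and 0.089), as they did without WT normoxia replicate 2 or WT hypoxia replicate 2 for WT, and without either FIH-KO normoxia library or FIH-KO hypoxia replicate 1 for FIH-KO. Between the genotypes Id3 differed by 0.30 in normoxia (SE 0.33, edgeR adjusted p = 0.53) and by 0.26 in hypoxia (SE 0.35, edgeR adjusted p = 0.61).

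Ordered by mean TPM in WT normoxia, the genes ran Id3 (158), Tgfbr2 (41.2), Id1 (40.1), Id2 (28.8), Tgfbr1 (24.98), Tgfb3 (18.6), Tgfb1 (14.0), Smad7 (7.79) and Bmp4 (0.0563). Tgfbr2 and Id1 did not differ beyond their spread there, since their libraries overlapped. In FIH-KO hypoxia, Tgfbr1 (15.5 TPM) had the lowest mean of the 8 tested genes, below Smad7 (20.9 TPM), though their libraries overlapped. The Id3 share of the TPM summed over Id1, Id2, Id3 and the scarce Id4 was 68.1% and 71.0% in WT normoxia, 61.9% and 61.6% in FIH-KO normoxia, 56.7% and 51.3% in WT hypoxia and 38.7% and 52.7% in FIH-KO hypoxia.

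Of the 8 tested genes, hypoxia raised Tgfb1 and Smad7 in WT cells (2 of 8 higher against 16.9% of all genes) and lowered Tgfb3, Tgfbr2 and Id3 (3 of 8 lower against 15.5%). In FIH-KO cells hypoxia raised Smad7 (1 of 8 against 8.84%) and lowered Tgfb3, Tgfbr2, Id1 and Id3 (4 of 8 against 7.995%). Tgfb3, Tgfbr2, Smad7 and Id3 were called in the same direction in both genotypes. Those comparisons share no library, but their spread comes from 1 model over all 8 libraries. The share of all genes called alike in both was not counted, so this is a description. The FIH-KO calls rested on single libraries, since none of the 8 genes was called there without FIH-KO normoxia replicate 1, FIH-KO normoxia replicate 2 or FIH-KO hypoxia replicate 1. In that comparison the Tgfb3 call was lost in 4 and the Tgfbr2 call in 6 of 15 alternatives, and the WT calls numbered 3 of 8 without WT normoxia replicate 2 or WT hypoxia replicate 2. Calls over all genes then fell too, in FIH-KO cells from 2345 to 1097, 1484 and 1447 without those 3 libraries and in WT cells from 4509 to 2124 and 2867.

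**Figure D3:**
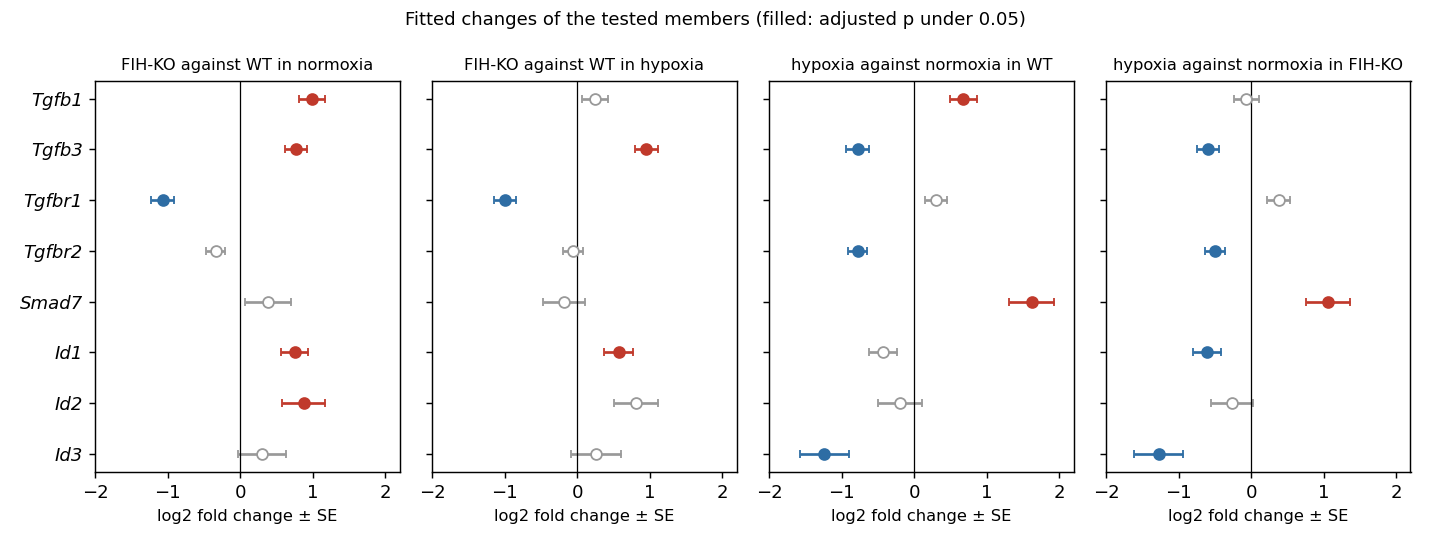
Log2 fold change of each tested signal gene in the 4 comparisons, with bars of 1 SE. Filled points have an edgeR adjusted p under 0.05, red where higher and blue where lower, and open points do not. Tgfbr1 is lower in FIH-KO cells in both oxygen conditions, and Smad7 is higher in hypoxia in both genotypes.

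Whether the genotype difference itself depended on oxygen was tested as an interaction over all 8 libraries. None of the 8 genes was called, and neither was any of the 13933 genes (0% by edgeR, with 925 at an unadjusted p under 0.05). DESeq2 called 37 genes, none of them among the 8. The 1 signal gene with an unadjusted p under 0.05 was Tgfb1, whose genotype difference was lower in hypoxia by 0.75 on the log2 scale (SE 0.25, unadjusted p = 0.012, edgeR adjusted p = 0.59). The calls of Tgfb1 and Id2 in normoxia and not in hypoxia were therefore not shown to be differences between the oxygen conditions.

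The wider pathway was read from a list of 97 genes in 12 roles, of which 64 were tested and 56 of those are not among the 9. This list too was drawn up with earlier results of these data known, so its shares are descriptions. In normoxia 20 of these 56 were called higher in FIH-KO cells, against 15.2% of all genes, and 2 lower, against 13.0% (median log2 fold change 0.37). In hypoxia 15 of 56 were higher, against 14.1%, and 7 lower, about the 13.9% of all genes (median 0.12, against -0.03 over all genes). Genes that hold or release latent TGF-beta were higher in 6 of 9 tested cases in each condition and lower in none. They included Thbs1, which encodes thrombospondin-1, an activator of latent TGF-beta, with a log2 fold change of 3.48 in normoxia and 3.15 in hypoxia (adjusted p = 8.7e-06 and 2.4e-05, edgeR). Itgb8 in both conditions and Lrrc32 in hypoxia were also among the 6. With means of 35.6 and 15 counts these 2 genes were scarce, so the counts of calls rest partly on low values. The latent TGF-beta binding protein gene Ltbp3 rose by 0.97 and 0.56 and the integrin gene Itgav by 0.47 and 0.65. Thbs1, Itgav, Id1 and Bmp2 and, named below, Eng and Grem1 lie on chromosome 2. Its tested genes other than Id1 had a median genotype difference of 0.23 in normoxia and 0.21 in hypoxia. The part of the chromosome in these changes was not tested.

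The 7 tested TGF-beta and activin receptors include Tgfbr1 and Tgfbr2. In normoxia 2 were higher, against 15.2% of all genes, and 1, Tgfbr1 itself, lower, against 13.0%. In hypoxia 2 were higher, against 14.1%, and 2 lower, Tgfbr1 among them, against 13.9%. Eng, which encodes the co-receptor endoglin, was higher by 1.12 and 1.09 (adjusted p = 2.6e-05 and 3.2e-05, edgeR), opposite to Tgfbr1, and none of the 3 tested BMP receptors was called in either condition. Among the 6 SMADs that carry the signal, Smad2, Smad3 and Smad4 were higher in FIH-KO normoxia (log2 fold changes of 0.36, 0.53 and 0.35) and Smad1, of the BMP branch, lower in normoxia (-0.63) and hypoxia (-0.86). In hypoxia Smad1 was the one SMAD of the 6 that was called.

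Of 9 tested TGF-beta targets, 5 were higher in FIH-KO normoxia, against 15.2% of all genes, and none lower, against 13.0%. In hypoxia 3 were higher, against 14.1%, and 1 lower, near the 13.9% of all genes. Fn1, which encodes fibronectin, rose by 1.68 and 1.10, and Tgfbi by 1.81 and 1.98 (adjusted p of at most 0.00056, edgeR). Acta2, which encodes smooth muscle actin, had values of 3.10 and 2.96 (adjusted p = 0.0034 and 0.0498, edgeR), but its FIH-KO libraries held 11.97 and 46.1 CPM in normoxia and 0.937 and 4.49 CPM in hypoxia. Snai2, a repressor of epithelial genes, was lower in FIH-KO than in WT cells in hypoxia (-0.54). In normoxia its genotype difference was 0.33 and was not called (edgeR adjusted p = 0.052). Among the 10 tested genes listed as inhibitory SMADs and attenuators, Smad7 included, 1 was higher in FIH-KO normoxia, against 15.2% of all genes. In hypoxia 2 were higher, Ski (0.39) among them, and 2 lower, Skil (-0.76) and Zfyve9 (-0.44), against 14.1% and 13.9%. Ski and Skil encode repressors of SMAD complexes. Zfyve9 and Usp15, also in that list, encode proteins that aid the TGF-beta signal, so its counts have no single direction for the pathway.

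Under hypoxia in WT cells, 19 of the 56 other genes were called higher, against 16.9% of all genes, and 7 lower, under the 15.5% of all genes. In FIH-KO cells 10 of 56 were higher, against 8.84%, and 9 lower, against 7.995%. The genes listed as attenuators, which include Smad7 itself as well as Zfyve9 and Usp15, counted 5 of 10 higher and 1 lower in each genotype. Skil stood at 0.92 (WT) and 0.59 (FIH-KO), and Tgif1 at 0.75 and 0.62. The TGF-beta targets also counted 5 of 9 higher and 2 lower in each genotype, with Acta2, among the lower ones, at -3.29 and -3.43. Grem1, which encodes a secreted BMP antagonist, rose by 2.08 in WT and 1.12 in FIH-KO cells. Activin and nodal ligands and follistatins, a list that also held Inha and Gdf15, were higher in 4 of 5 tested cases in WT cells. Fstl3, an activin antagonist, rose there by 1.43. In FIH-KO cells 0 of 5 were called, and the interaction called none of the 5. Of these genes Inha, Inhba and Gdf15 were scarce, with means of 17.5, 6.25 and 7.75 counts, so the counts of calls rest partly on low values. The latency genes were called lower in 4 of 9 cases in FIH-KO cells, Thbs1 (-1.04) and Ltbp1 (-1.03) among them. In WT cells it was 2 of 9, the scarce Lrrc32 among them.

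**Figure D4:**
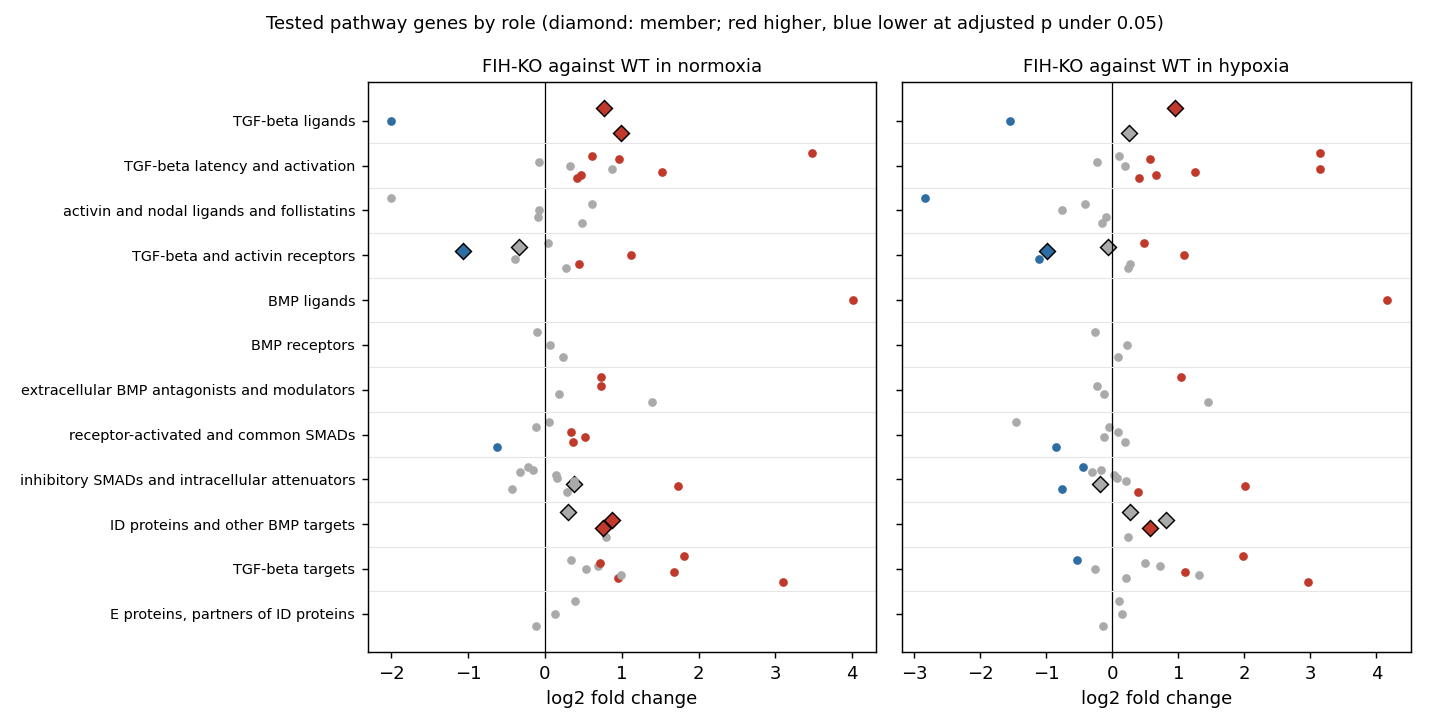
Log2 fold changes of the listed TGF-beta and BMP genes by role in the comparisons of genotype, 1 point per tested gene, with diamonds for the 8 tested signal genes, red for genes called higher, blue for lower and grey for the rest. Of the latency genes 6 of 9 are called higher in either oxygen condition, against 15.2% of all genes in normoxia and 14.1% in hypoxia. Among them are the scarce Itgb8 and, in hypoxia, the scarce Lrrc32.

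The genes outside the list whose log2 CPM followed a signal gene most closely over the 8 libraries were Vps35l for Tgfb3 (r = 0.995), 2610507B11Rik for Tgfbr1 (r = 0.992), Gpd2 for Tgfbr2 (r = 0.988) and Cyp4f16 for Tgfb1 (r = 0.987). For the others they were Col4a1 with Id3 (r = 0.986), Fhl2 with Smad7 (r = 0.978), Rgs12 with Id1 (r = 0.978) and Spsb3 with Id2 (r = 0.954). These are descriptions over libraries that share 4 groups, taken as the highest of all tested genes.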

How the data were processed

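LLC libraries were made by the authors with a stranded mRNA kit, and the reads were aligned to GRCm39 with STAR and counted with HTSeq. What was deposited is raw counts per gene, with no normalization. The annotation release, the strand setting and the treatment of multi-mapping reads are not given in the sources used here. Groups came from the labels.

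In R 4.3.3, edgeR 4.0.16 (filterByExpr, TMM, 1 quasi-likelihood model with a mean per group, Benjamini-Hochberg over 13933 genes) gave the tests. CPM used TMM library sizes, and TPM the exon unions of GENCODE vM39, in which 52610 identifiers were found. Replicate libraries differed beyond counting noise (chi-square per degree of freedom 6.17 to 25.8). RefSeq promoters (GRCm38.p6) were placed on GRCm39 by unique sequence match. The members and lists were chosen with earlier results of these data known. All signal genes are named, and of the other roles up to 4 called genes per genotype comparison and up to 2 per oxygen comparison, with a mean of at least 50 counts and the largest changes. One gene that this rule names is not reported here. Tgfb2, Ttll5 and the Snai2 interaction were named after their values were seen. Alternatives were DESeq2 1.42.0, RLE or upper-quartile factors, no filter on low counts, a minimum of 10 counts per library, fits of the compared libraries alone, a replicate block and each library left out. The fit was tested on simulated data. Python 3.11.15 with matplotlib 3.10.9 drew the plots.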

Additional observations from a re-analysis of the deposited data

How the results depend on the processing

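With 2 libraries per group, leaving out 1 leaves its group with a lone library that is assumed to vary like the others. The calls of Tgfbr1 in both genotype comparisons, Tgfb1 between the genotypes in normoxia, Tgfb3 between them in hypoxia, and Tgfb3, Tgfbr2 and Smad7 between the oxygen conditions in WT cells kept their direction and their side of the threshold in all the alternatives run. With single libraries left out, the count of called signal genes ran from 2 to 6 for genotype in normoxia (2 without WT normoxia replicate 1), from 2 to 4 for genotype in hypoxia, from 3 to 5 for hypoxia in WT cells and from 0 to 5 for hypoxia in FIH-KO cells. The counts over the 97 listed genes ran from 14 to 33, from 16 to 26, from 17 to 36 and from 7 to 26, around 27, 25, 31 and 24. Over all genes they ran from 1735 to 4672, from 2170 to 3887, from 2124 to 5270 and from 1097 to 2604, around 3933, 3896, 4509 and 2345. With only the libraries compared, hypoxia in FIH-KO cells gave 2 called signal genes and 9 called listed genes. For the interaction, DESeq2 called 2 listed genes (Grem1, -0.94, adjusted p = 0.0069, and Snai2, -0.86, adjusted p = 0.015) and no filter on low counts gave 4, against 0 by edgeR.

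Every reversed sign arose with a library left out and in a value that was not called. Log2 fold changes of genotype in hypoxia then ran from -0.56 to 0.39 for Smad7, from -0.165 to 0.0938 for Tgfbr2, from -0.48 to 0.88 for Id3 and from -0.0281 to 0.509 for Tgfb1. Hypoxia changed Id2 by -0.77 to 0.17 in WT and by -0.77 to 0.14 in FIH-KO cells, and Tgfb1 by -0.36 to 0.19 in FIH-KO cells. Interaction values ran from -0.38 to 0.14 for Id1, from -0.57 to 0.53 for Id2, from -0.78 to 0.61 for Id3, from -0.941 to 0.0311 for Smad7, from -0.00722 to 0.427 for Tgfb3 and from -0.0650 to 0.269 for Tgfbr1. The cause was not tested. Same-numbered libraries did not deviate together in every pair of groups (correlations from -0.01 to 0.19), so the numbers were not taken as pairs. With a replicate block the called signal genes numbered 5, 3, 5, 5 and 0, as without it. Bmp4, at 2 counts or fewer, was below what this depth can compare.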

Other observations

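Several of the signal genes differed between the libraries of a hypoxia group by about as much as between groups. In WT hypoxia, replicate 1 exceeded replicate 2 by 0.98 on the log2 scale for Id3, 0.91 for Smad7, 0.90 for Id2 and 0.46 for Id1, and by 0.03 for Tgfb1. In FIH-KO hypoxia, replicate 1 was lower for Id3 (-1.23) and Id2 (-0.87) and higher for Smad7 (0.58) and Tgfb1 (0.57). Id2 and Id3 were thus apart in opposite directions in the hypoxia groups, while Smad7 was higher in replicate 1 of both. In the normoxia groups the largest such gap among the 8 tested genes was 0.56, for Smad7 in WT cells. What sets these libraries apart was not tested.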
